A study of Mus musculus with 36 samples.

Results

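The early dark step is the change in liver RNA from ZT14 to ZT18, that is from 2 h to 6 h after lights off (ZT, zeitgeber time, hours after lights on). It was measured in 12 of the 36 libraries of the series, namely all 6 sampled at ZT14 and all 6 sampled at ZT18, each from the liver of 1 male mouse. At each of these times 3 libraries were labelled THRBWT and 3 THRBKO. THRBWT mice carried 1 altered *Thrb* allele (THRB+/-) and served as controls, and THRBKO mice carried it on both chromosomes (THRB-/-). The allele (Thrbtm1Df, on a C57Bl/6NCrl background) removes the function of both isoforms of thyroid hormone receptor beta in the whole body, so that an action in the liver and one in other tissues cannot be told apart. All mice were 2 to 3 months old, group-housed under 12 h of light and 12 h of dark, and had chow and water ad libitum. Food intake was not analysed here, and the clock, darkness and meals cannot be told apart as sources of a change between these times. Genotype was a covariate, and 17994 of the 54532 listed genes, those with at least 100 counts over all 36 libraries, were tested.

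The 12 libraries held between 29063273 and 42530551 counts. The deepest, THRBKO ZT14 c, also lay farthest out on the first principal component, and 662 genes passed the test without it. *Thrb* was listed at 26.1 to 32.3 CPM (counts per 1e+06 counts, scaled by TMM) at ZT14 and at 26.2 to 32.5 CPM at ZT18. Its mean was 29.5 ± 2.29 CPM in THRBWT and 29.8 ± 3.24 CPM in THRBKO at ZT14 (SD, n = 3), so that counts over the whole gene did not check the genotype labels. *Dio1*, the liver deiodinase and a classical target of thyroid hormone, did separate them, at 31.6 to 67.9 CPM in the 6 THRBKO libraries against 75.8 to 151 CPM in the 6 THRBWT libraries. Hepatocyte markers summed to 83970 to 93010 CPM at ZT14 and 80550 to 95530 CPM at ZT18. None of the tested markers of other cell types passed the test, although all 9 Kupffer cell markers had a positive log2 fold change (median 0.39), as did all 5 B cell markers (median 0.64), all 5 erythroid markers (median 0.49) and all 5 cholangiocyte markers (median 0.38). What these cells contributed to the results was not tested. In bulk liver, fewer cells of a type and less RNA per cell cannot be told apart.

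The liver clock is a loop of transcription factors. BMAL1 (encoded by *Arntl*) pairs with CLOCK or NPAS2 and switches on genes through E-box sequences, among them its own inhibitors of the PER and CRY families and *Ciart*. The same pair drives *Nr1d1* and *Nr1d2*, whose REV-ERB proteins bind RORE elements and repress *Arntl* and *Nfil3*, in competition with activators of the ROR family. DBP, TEF and HLF, the PAR-bZIP factors, and their rival NFIL3 pass the rhythm on to genes of metabolism and detoxification. In mice, which eat mainly at night, the early dark phase is when feeding starts to act on lipid, sugar and protein metabolism in the liver.

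The promoters of a few of these genes, whose transcripts moved in opposite directions, are shown. Their windows also carry letters that occur in E-box or RORE elements. These promoters were chosen after the matches were seen, and the windows of *Nr1d1* and *Dbp*, the 2 named genes with the largest falls, hold neither motif. Among called clock and PAR-bZIP genes not shown, *Cry1*, which rose, and *Tef*, which fell, have an E-box. *Clock*, which rose, and *Nr1d2*, which fell, have a half-site in a window. Each window runs from 250 bases before to 50 bases after a transcription start in RefSeq (build GRCm38.p6), and is written in the direction of the gene. Capitals mark the E-box CACGTG and the half-site AGGTCA shared by ROR and REV-ERB proteins (TGACCT when read on the other strand), both searched on both strands. Bases beside the half-site were not searched, so that a match is not specific to ROR and REV-ERB proteins.
Ciart: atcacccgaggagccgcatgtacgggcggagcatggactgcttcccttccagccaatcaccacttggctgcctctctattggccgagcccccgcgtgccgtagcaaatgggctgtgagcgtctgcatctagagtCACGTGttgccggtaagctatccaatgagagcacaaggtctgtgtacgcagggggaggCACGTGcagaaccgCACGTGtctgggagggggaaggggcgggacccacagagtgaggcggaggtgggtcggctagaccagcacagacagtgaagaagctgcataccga
Per1: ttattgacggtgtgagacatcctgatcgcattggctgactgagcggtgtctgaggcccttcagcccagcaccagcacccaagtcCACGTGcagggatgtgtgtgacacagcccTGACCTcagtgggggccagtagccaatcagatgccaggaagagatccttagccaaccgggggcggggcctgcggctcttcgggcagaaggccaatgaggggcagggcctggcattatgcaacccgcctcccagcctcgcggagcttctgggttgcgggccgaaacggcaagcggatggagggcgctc
Arntl: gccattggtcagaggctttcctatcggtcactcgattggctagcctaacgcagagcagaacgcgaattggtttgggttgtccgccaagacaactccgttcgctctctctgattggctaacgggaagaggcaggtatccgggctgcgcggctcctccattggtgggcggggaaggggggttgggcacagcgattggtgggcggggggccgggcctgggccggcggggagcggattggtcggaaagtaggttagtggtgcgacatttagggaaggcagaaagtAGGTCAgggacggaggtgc
Nfil3: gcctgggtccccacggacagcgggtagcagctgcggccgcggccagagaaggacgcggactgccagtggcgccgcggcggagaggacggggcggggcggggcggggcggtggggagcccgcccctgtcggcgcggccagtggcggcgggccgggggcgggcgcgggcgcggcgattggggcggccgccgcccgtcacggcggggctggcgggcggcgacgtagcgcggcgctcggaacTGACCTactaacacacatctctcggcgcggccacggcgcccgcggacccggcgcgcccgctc
The window of *Ciart* lies on the minus strand at chr3:95882179-95882478 and holds 3 E-boxes, 116, 58 and 44 bases before the start. The first of 2 windows of *Per1*, on the plus strand at chr11:69098699-69098998, holds 1 E-box, 166 bases before the start, and 1 half-site, 137 bases before it, and the second window holds neither motif. The second of 2 windows of *Arntl*, on the plus strand at chr7:113207261-113207560, holds 1 half-site, just after the start at position 32, and the first window holds neither motif. The window of *Nfil3*, on the minus strand at chr13:52980990-52981289, holds 1 half-site, 12 bases before the start. No marked site overlaps another. Of the tested genes with a window, 11% hold the E-box and 15.9% the half-site in at least 1 window. The shares were 14.9% and 19.6% among genes that were higher at ZT18, and 14.7% and 17.8% among genes that were lower. A match describes the letters of the window and not a bound site.

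Between ZT14 and ZT18, 724 genes passed the test (edgeR, quasi-likelihood F test, Benjamini-Hochberg adjusted p under 0.05), which is 4.02% of the 17994 tested. Of these, 379 genes (2.11%) were higher at ZT18 and 345 (1.92%) were lower. Most changes were small: 103 of the 724 genes had an absolute log2 fold change of at least 1, 74 of them higher and 29 lower, against a median absolute value of 0.48 over the called genes. For 417 of the called genes the 6 values at ZT14 and the 6 at ZT18 did not overlap, as was the case for 3.03% of all tested genes. The median log2 fold change of all tested genes was 0.015. The count depended on single libraries, falling to 373 without THRBKO ZT18 b, 405 without THRBWT ZT18 c and 424 without THRBWT ZT14 b. It also depended on the size asked for, since a test against a minimum fold change of 1.5 left 11 genes.

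**Figure D1:**
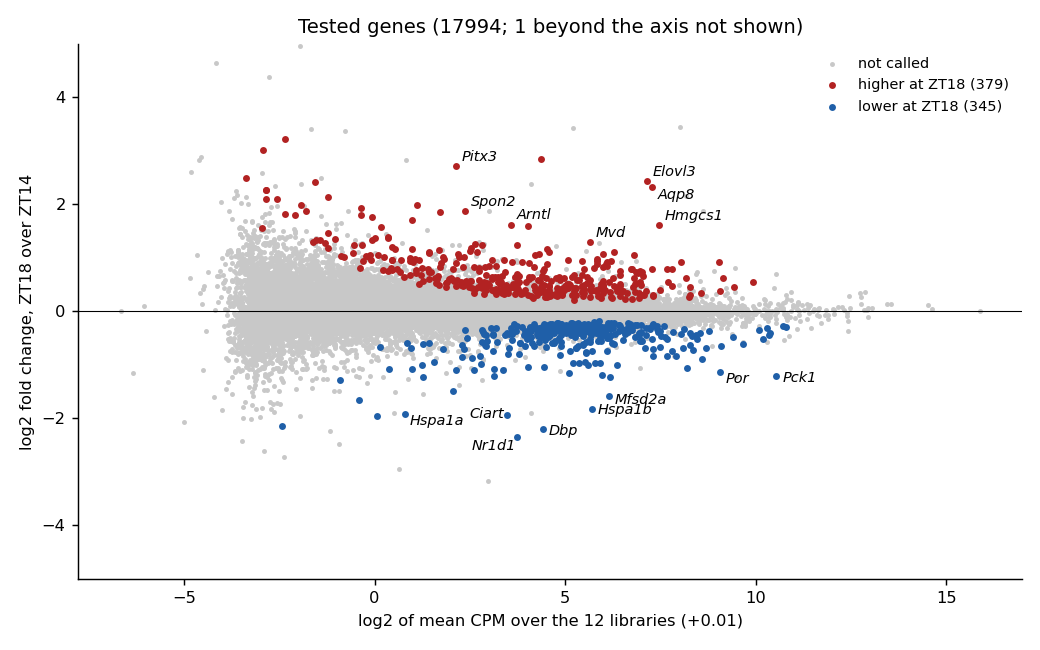
Log2 fold change of ZT18 over ZT14 (vertical axis) against the log2 of the mean CPM over the 12 libraries (horizontal axis), 1 point per tested gene, with the genes that passed the test in red (379 higher at ZT18) or blue (345 lower) and some named. The larger changes include those of *Elovl3*, *Aqp8* and *Hmgcs1* above and *Nr1d1*, *Dbp* and *Ciart* below. Among genes of high level, *Por* (-1.13) and *Pck1* (-1.22) also lie well below 0.

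The core clock loop moved in both directions. Of its 15 genes, all tested, 3 rose (*Arntl*, *Clock* and *Cry1*), 5 fell (*Nr1d1*, *Nr1d2*, *Ciart*, *Per1* and *Bhlhe40*) and 7 did not pass the test, with a median log2 fold change of -0.15. A share of 53.3% passed, beside 4.02% of all tested genes. *Arntl*, the gene of BMAL1, lay between 3.60 and 7.71 CPM at ZT14, with a median of 6.13, and between 14.6 and 23.6 CPM at ZT18, with a median of 17.6. Every ZT18 library lay above every ZT14 library, and the level rose 3.07-fold (log2 fold change 1.62, SE 0.17, adjusted p = 4.47e-04). Its partner *Clock* was measured at 20.02 to 27.1 CPM at ZT14 (median 22.5) and 28.3 to 34.5 CPM at ZT18 (median 31.2). Every ZT18 value was higher, a rise of 1.35-fold (log2 fold change 0.44, SE 0.078, adjusted p = 0.00757). *Cry1*, a late repressor of the loop, was measured between 22.8 and 36.9 CPM at ZT14, with a median of 29.2, and between 33.6 and 50.8 CPM at ZT18, with a median of 39.5. Some libraries of the times overlapped, and the rise was 1.40-fold (log2 fold change 0.48, SE 0.12, adjusted p = 0.0437). The call was lost in 8 of the 12 fits that left out 1 library, with adjusted p up to 0.114.

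The repressors that are known to peak in the day fell. *Nr1d1*, which encodes REV-ERB alpha, ranged from 14.3 to 30.7 CPM at ZT14 (median 22.4) and 3.06 to 6.01 CPM at ZT18 (median 4.54). The ZT14 libraries were all higher, and this was the largest fall in the loop, 5.08-fold (log2 fold change -2.35, SE 0.20, adjusted p = 8.26e-05). On chromosome 11 its 3' end overlaps that of *Thra* on the opposite strand. The libraries were not directional, so that reads from the overlap could not be assigned to one of these genes. *Thra* itself, the other thyroid hormone receptor gene, lay between 8.83 and 12.4 CPM at ZT14, with a median of 10.6, and between 10.9 and 15.4 CPM at ZT18, with a median of 13.2. The difference missed the threshold (log2 fold change 0.31, SE 0.11, adjusted p = 0.125). *Nr1d2*, the gene of REV-ERB beta, lay at 40.5 to 63.5 CPM at ZT14 (median 44.2) and 10.4 to 28.7 CPM at ZT18 (median 21.8). The ranges did not overlap, and the fall was 2.23-fold (log2 fold change -1.16, SE 0.17, adjusted p = 0.00202). *Ciart*, whose product inhibits the CLOCK and BMAL1 pair and whose promoter is printed above, was measured between 14.6 and 19.2 CPM at ZT14, with a median of 18.2, and between 2.96 and 6.52 CPM at ZT18, with a median of 4.59. All 6 libraries of ZT18 lay below those of ZT14, with a fall of 3.83-fold (log2 fold change -1.94, SE 0.17, adjusted p = 8.26e-05).

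Among the period genes only *Per1* passed the test. It was measured at 40.6 to 82.5 CPM at ZT14 (median 57.6) and 15.7 to 42.3 CPM at ZT18 (median 31.8). The lowest ZT14 library lay inside the range of ZT18, and the fall was 1.92-fold (log2 fold change -0.94, SE 0.22, adjusted p = 0.0275). The call was lost in 5 of 12 fits without 1 library, with adjusted p up to 0.0635. *Per2* lay between 85.2 and 109 CPM at ZT14, with a median of 90.1, and between 59.7 and 113 CPM at ZT18, with a median of 81.0. This was not past the threshold (log2 fold change -0.15, SE 0.15, adjusted p = 0.647). *Per3*, which overlaps *Camta1*, ranged from 27.3 to 34.0 CPM at ZT14 (median 30.4) and 13.5 to 27.9 CPM at ZT18 (median 21.9). It did not pass the test (log2 fold change -0.51, SE 0.15, adjusted p = 0.0746). *Bhlhe40*, which encodes the E-box repressor DEC1, was measured between 132 and 189 CPM at ZT14, with a median of 144, and between 77.3 and 118 CPM at ZT18, with a median of 112. This 1.47-fold fall left no overlap between the times (log2 fold change -0.55, SE 0.11, adjusted p = 0.0107). In the fit over all 36 libraries the call was lost (adjusted p = 0.0725). *Bhlhe41*, its close relative, lay at 1.38 to 3.44 CPM at ZT14 (median 2.27) and 0.470 to 2.46 CPM at ZT18 (median 1.48). The difference missed the threshold (log2 fold change -0.71, SE 0.29, adjusted p = 0.185).

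Among the other genes of the loop that did not pass the test, *Rora*, which encodes an activator at RORE elements, lay between 37.1 and 50.8 CPM at ZT14, with a median of 41.3, and between 38.5 and 56.5 CPM at ZT18, with a median of 46.9. The log2 fold change was 0.13 (SE 0.099, adjusted p = 0.526). *Cry2*, the other cryptochrome, was measured at 40.0 to 52.4 CPM at ZT14 (median 47.2) and 38.6 to 51.0 CPM at ZT18 (median 46.4). Here it was -0.037 (SE 0.079, adjusted p = 0.859). *Npas2*, the alternative partner of BMAL1, was measured between 0 and 0.107 CPM at ZT14, with a median of 0.0317, and between 0.0271 and 2.50 CPM at ZT18, with a median of 0.199. It was barely counted at ZT14, and 1 ZT18 library (THRBWT c) held most of the signal. The fitted value missed the threshold (log2 fold change 3.40, SE 0.98, adjusted p = 0.0695).

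**Figure D2:**
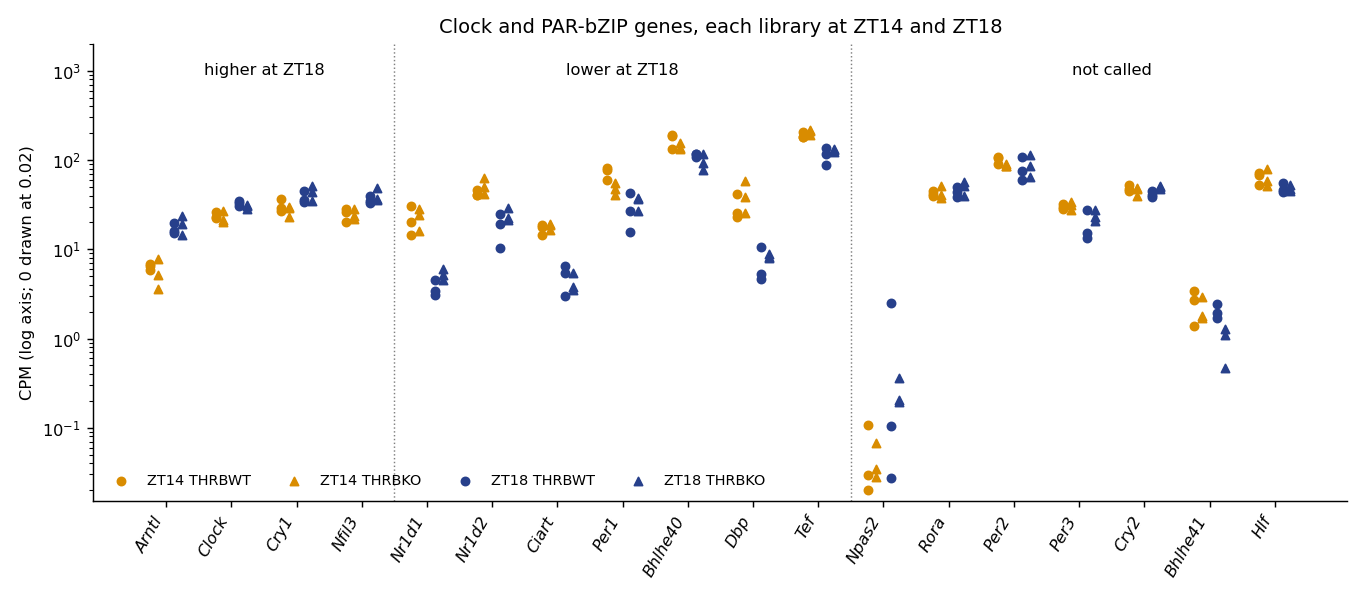
CPM on a log axis for each of the 12 libraries and for 18 genes of the clock loop and the PAR-bZIP group, ZT14 in orange and ZT18 in blue, circles for THRBWT and triangles for THRBKO, with dotted lines between genes that were higher, lower or not called. The orange and blue points are separate for *Arntl*, *Nr1d1*, *Nr1d2*, *Ciart*, *Dbp* and *Tef*, and for *Per1* the 3 THRBWT libraries of ZT14 lie above the 3 THRBKO libraries of that time.

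Of the 3 PAR-bZIP genes *Dbp*, *Tef* and *Hlf* and their antagonist *Nfil3*, *Dbp* and *Tef* fell, *Nfil3* rose and *Hlf* did not pass the test. *Dbp*, a direct E-box target of the clock, ranged from 23.1 to 57.7 CPM at ZT14 (median 32.2) and 4.64 to 10.7 CPM at ZT18 (median 8.12). The lowest ZT14 library held more than 2 times the level of the highest ZT18 library, and the fall was 4.61-fold (log2 fold change -2.20, SE 0.23, adjusted p = 3.91e-04). *Tef* lay between 180.2 and 218 CPM at ZT14, with a median of 199, and between 88.0 and 135 CPM at ZT18, with a median of 126. The ZT14 libraries were the higher ones throughout, by 1.63-fold on average (log2 fold change -0.71, SE 0.089, adjusted p = 8.82e-04). *Hlf* lay at 51.5 to 80.3 CPM at ZT14 (median 63.9) and 43.5 to 56.0 CPM at ZT18 (median 47.0). This was not past the threshold (log2 fold change -0.39, SE 0.11, adjusted p = 0.0619). *Nfil3*, which encodes the repressor that competes with these factors for the same sites, was measured between 20.2 and 28.5 CPM at ZT14, with a median of 24.8, and between 32.8 and 48.4 CPM at ZT18, with a median of 36.5. With no overlap between the times, the rise was 1.54-fold (log2 fold change 0.62, SE 0.11, adjusted p = 0.00587).

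Among the called genes whose libraries did not overlap between the times (mean of at least 50 counts, predicted genes left out), the rises were led by *Pitx3* and *Elovl3*, which lie next to each other on chromosome 19. *Chrna4*, which encodes a nicotinic acetylcholine receptor subunit, rose more and was kept out of this group by overlap between 1 library of each time. It was singled out after its value was seen. It was measured at 1.54 to 11.04 CPM at ZT14 (median 4.45) and 10.6 to 49.98 CPM at ZT18 (median 38.8), and the rise was 7.17-fold (log2 fold change 2.84, SE 0.42, adjusted p = 0.00267). *Elovl3*, an elongase of very long chain fatty acids, lay between 4.34 and 100.2 CPM at ZT14, with a median of 37.8, and between 127 and 438 CPM at ZT18, with a median of 227. The ZT18 libraries were all higher, but differed by more than 3 times among themselves, and the rise was 5.41-fold (log2 fold change 2.43, SE 0.53, adjusted p = 0.0203). *Pitx3*, a homeobox gene known from eye lens and midbrain, ranged from 0.0448 to 2.66 CPM at ZT14 (median 1.15) and 2.91 to 14.03 CPM at ZT18 (median 6.68). Both sets of libraries stood apart, with a rise of 6.59-fold (log2 fold change 2.72, SE 0.59, adjusted p = 0.0193). Its annotated 3' end lies 377 bases from that of *Elovl3* on the other strand, the libraries were not directional, and how many of its reads came from *Elovl3* transcripts was not tested. Both calls rested on few libraries: that of *Pitx3* was lost without THRBWT ZT18 c or THRBKO ZT18 b (adjusted p up to 0.0667), and that of *Elovl3* without either of these or THRBWT ZT14 b (up to 0.0559). *Aqp8*, a water channel of hepatocytes, was measured between 14.6 and 84.7 CPM at ZT14, with a median of 47.0, and between 105 and 394 CPM at ZT18, with a median of 267. Every ZT18 value was higher, a rise of 5.01-fold (log2 fold change 2.33, SE 0.37, adjusted p = 0.00371). Its promoter window holds 1 E-box. *Spon2*, which encodes a secreted matrix protein, lay at 1.77 to 2.73 CPM at ZT14 (median 2.28) and 4.96 to 13.2 CPM at ZT18 (median 7.52). The ranges did not overlap, and the rise was 3.65-fold (log2 fold change 1.87, SE 0.22, adjusted p = 6.85e-04).

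The other rises among the 10 without overlap were *Arntl*, described above, *Hmgcs1* and *Mvd* of the cholesterol pathway, and 3 genes of small GTPase signalling. *Rab36*, a member of the RAB family, lay between 2.86 and 5.05 CPM at ZT14, with a median of 3.38, and between 5.63 and 10.6 CPM at ZT18, with a median of 9.17. All 6 libraries of ZT18 lay above those of ZT14, with a rise of 2.38-fold (log2 fold change 1.25, SE 0.16, adjusted p = 0.00109). *Ralgps1*, an exchange factor for RAL proteins, was measured at 2.84 to 5.22 CPM at ZT14 (median 4.32) and 7.19 to 11.9 CPM at ZT18 (median 9.87). This 2.36-fold rise left no overlap between the times (log2 fold change 1.24, SE 0.16, adjusted p = 0.00102). *Asap2*, a GTPase-activating protein for ARF, was measured between 3.0 and 4.07 CPM at ZT14, with a median of 3.61, and between 4.58 and 11 CPM at ZT18, with a median of 8.67. The ZT18 libraries were the higher ones throughout, by 2.26-fold on average (log2 fold change 1.18, SE 0.19, adjusted p = 0.00388). *Ralgps1* shares its locus with *Angptl2* and *Asap2* with *Itgb1bp1*, on opposite strands.

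The 10 largest falls were taken, like the rises, from called genes without overlap between the times. Separate libraries were part of the choice of these genes and not a result. Apart from the clock genes, these falls joined lipid transport, the electron supply of cytochromes P450, and genes that respond to glucocorticoids, metals or heat. *Mfsd2a*, the transporter of lysophosphatidylcholine with docosahexaenoic acid, ranged from 62.6 to 136 CPM at ZT14 (median 115) and 23.99 to 45.4 CPM at ZT18 (median 35.3). With no overlap between the times, the fall was 3.0-fold (log2 fold change -1.58, SE 0.18, adjusted p = 5.46e-04). *Noct*, which encodes the rhythmic phosphatase nocturnin, lay between 61.7 and 124 CPM at ZT14, with a median of 83.4, and between 27.5 and 49.3 CPM at ZT18, with a median of 34.4. Both sets of libraries stood apart, with a fall of 2.29-fold (log2 fold change -1.19, SE 0.16, adjusted p = 0.00123). *Por*, the gene of the reductase that passes electrons to microsomal cytochromes P450, lay at 631 to 879.9 CPM at ZT14 (median 708) and 246 to 403 CPM at ZT18 (median 329.6). Every ZT18 value was lower, a fall of 2.19-fold (log2 fold change -1.13, SE 0.12, adjusted p = 3.91e-04). *Fkbp5*, a co-chaperone of the glucocorticoid receptor and a well known target of it, was measured between 77.2 and 143 CPM at ZT14, with a median of 92.3, and between 31.7 and 69.3 CPM at ZT18, with a median of 39.8. The ranges did not overlap, and the fall was 2.34-fold (log2 fold change -1.22, SE 0.19, adjusted p = 0.00373). *Mt1*, a metallothionein, was measured at 8.19 to 24.2 CPM at ZT14 (median 10.3) and 2.90 to 6.91 CPM at ZT18 (median 5.46). All 6 libraries of ZT18 lay below those of ZT14, with a fall of 2.32-fold (log2 fold change -1.21, SE 0.26, adjusted p = 0.0203). The call was lost without THRBKO ZT18 b (adjusted p = 0.0581). *Hspa1a*, an inducible HSP70 gene, lay between 1.23 and 3.98 CPM at ZT14, with a median of 2.76, and between 0.395 and 1.18 CPM at ZT18, with a median of 0.566. This 3.80-fold fall left no overlap between the times (log2 fold change -1.93, SE 0.32, adjusted p = 0.00464). Its near-identical copy *Hspa1b* ranged from 47.1 to 133 CPM at ZT14 (median 80.5) and 10.96 to 49.0 CPM at ZT18 (median 16.5). There was overlap between the times, and the fall was 3.53-fold (log2 fold change -1.82, SE 0.32, adjusted p = 0.00716). Reads can be shared between these copies, and their split is uncertain.

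Cholesterol synthesis was the metabolic list with the highest share of genes that passed the test. Of 24 genes of synthesis and uptake, all tested, 11 rose (45.8%, beside 2.11% of all tested genes), none fell and 13 did not pass. The median log2 fold change was 0.41 against 0.015 over all tested genes. The median was 0.53 within THRBWT and 0.45 within THRBKO. *Hmgcs1*, the cytosolic HMG-CoA synthase at the head of the pathway, was measured between 66.0 and 104 CPM at ZT14, with a median of 85.7, and between 184 and 323 CPM at ZT18, with a median of 260.2. Its ZT18 libraries were all above its ZT14 libraries, and its rise was the highest of the list, 3.05-fold (log2 fold change 1.61, SE 0.13, adjusted p = 8.26e-05). *Pmvk*, phosphomevalonate kinase, lay at 42.2 to 57.9 CPM at ZT14 (median 52.6) and 78.6 to 108 CPM at ZT18 (median 103). The ZT18 libraries were the higher ones throughout, by 1.91-fold on average (log2 fold change 0.93, SE 0.10, adjusted p = 4.85e-04). *Mvd*, mevalonate diphosphate decarboxylase, lay between 19.5 and 38.9 CPM at ZT14, with a median of 29.2, and between 52.4 and 91.4 CPM at ZT18, with a median of 72.0. With no overlap between the times, the rise was 2.46-fold (log2 fold change 1.296, SE 0.16, adjusted p = 8.75e-04). *Fdps*, farnesyl diphosphate synthase, was measured at 5.75 to 14.6 CPM at ZT14 (median 9.55) and 12.8 to 26.6 CPM at ZT18 (median 19.5). The rise was 1.90-fold, with overlapping ranges (log2 fold change 0.93, SE 0.21, adjusted p = 0.0221). Its call was lost without THRBWT ZT14 b or THRBWT ZT18 c (adjusted p up to 0.0574).

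Further down, the first steps that are specific to sterols rose by similar amounts. *Fdft1*, squalene synthase, had a log2 fold change of 0.55, *Sqle*, squalene epoxidase, of 0.73, and *Lss*, which closes the rings to lanosterol, of 0.75. Of the enzymes that trim lanosterol, *Msmo1* (0.67), *Hsd17b7* (0.55) and *Sc5d* (0.63) passed the test, whereas *Cyp51* (0.32), *Nsdhl* (0.25), *Tm7sf2* (0.15) and *Ebp* (0.12) did not. *Dhcr7*, one of the last enzymes of the pathway, was measured between 63.2 and 88.7 CPM at ZT14, with a median of 78.1, and between 108 and 155 CPM at ZT18, with a median of 134. Both sets of libraries stood apart, with a rise of 1.73-fold (log2 fold change 0.79, SE 0.094, adjusted p = 7.35e-04). *Srebf2*, the master factor of the pathway, ranged from 53.4 to 75.1 CPM at ZT14 (median 61.1) and 65.3 to 75.8 CPM at ZT18 (median 70.2). This was not past the threshold (log2 fold change 0.18, SE 0.073, adjusted p = 0.190). *Srebf2* was singled out after its value was seen. Over the fits that left out 1 library, between 10 and 12 members rose and none fell.

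**Figure D3:**
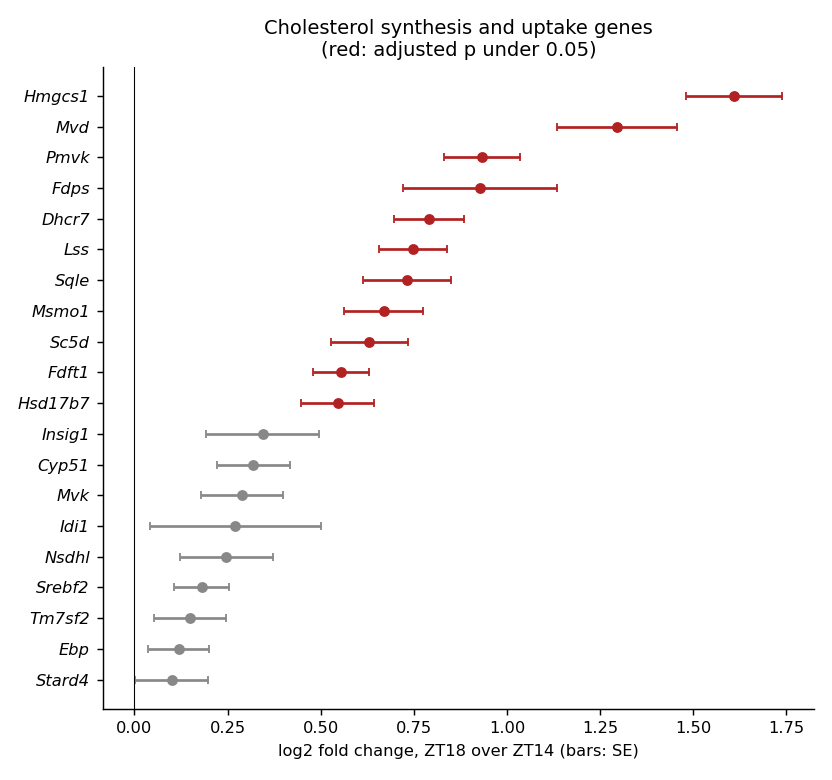
Log2 fold change of ZT18 over ZT14 for 20 of the 24 genes of cholesterol synthesis and uptake, from the fit over 12 libraries, with bars of 1 SE on each side and the 11 genes that passed the test in red. *Hmgcs1* and *Mvd* stand apart at the top, and the 20 genes drawn lie to the right of 0, as did 22 of the whole list of 24.

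Of 18 genes of fatty acid synthesis, 1 rose and 2 fell (16.7% called, beside 4.02% of all tested genes), and the median was 0.05. *Acly*, ATP citrate lyase, which makes the cytosolic acetyl-CoA that both fatty acid and cholesterol synthesis start from, lay between 288 and 453 CPM at ZT14, with a median of 346, and between 457 and 882 CPM at ZT18, with a median of 759.5. Every ZT18 value was higher, a rise of 1.90-fold (log2 fold change 0.92, SE 0.16, adjusted p = 0.00559). *Srebf1*, which encodes the lipogenic factor SREBP1, moved the other way and lay at 576 to 785 CPM at ZT14 (median 659.7) and 327 to 567 CPM at ZT18 (median 418). The ranges did not overlap, and the fall was 1.56-fold (log2 fold change -0.64, SE 0.13, adjusted p = 0.0121). It overlaps *Rai1* on the opposite strand. *Fads2*, the delta-6 desaturase, was measured between 288 and 538 CPM at ZT14, with a median of 353, and between 184 and 305 CPM at ZT18, with a median of 237. The ranges overlapped in part, with a fall of 1.55-fold (log2 fold change -0.64, SE 0.14, adjusted p = 0.0242). Its call was lost without THRBWT ZT14 b, THRBKO ZT18 b or THRBKO ZT18 c (adjusted p up to 0.0653). *Fasn*, fatty acid synthase, was measured at 734 to 2388 CPM at ZT14 (median 1584) and 1133 to 2351 CPM at ZT18 (median 2078). The difference missed the threshold (log2 fold change 0.31, SE 0.22, adjusted p = 0.497). *Fasn* was singled out after its value was seen.

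In fatty acid oxidation and ketogenesis, 1 of 28 genes rose and 3 fell, with a median of -0.10. This share of 14.3% lay beside 4.02% of all tested genes. *Cpt1a*, the gate for entry of long chain fatty acids into mitochondria, lay between 254 and 398 CPM at ZT14, with a median of 303, and between 139.8 and 218 CPM at ZT18, with a median of 162. All 6 libraries of ZT18 lay below those of ZT14, with a fall of 1.78-fold (log2 fold change -0.83, SE 0.12, adjusted p = 0.00165). *Acot4*, a peroxisomal thioesterase, ranged from 45.6 to 70.3 CPM at ZT14 (median 58.9) and 30.5 to 50.1 CPM at ZT18 (median 43.4). The fall was 1.43-fold, with overlapping ranges (log2 fold change -0.51, SE 0.12, adjusted p = 0.0337). The call was lost in 5 of 12 fits without 1 library (adjusted p up to 0.0908). *Bdh1*, which forms beta-hydroxybutyrate, was measured between 164 and 207 CPM at ZT14, with a median of 182, and between 147 and 157 CPM at ZT18, with a median of 152. This 1.21-fold fall left no overlap between the times (log2 fold change -0.28, SE 0.058, adjusted p = 0.0160). *Plin2*, the coat protein of lipid droplets, lay at 139 to 277 CPM at ZT14 (median 237) and 304 to 425 CPM at ZT18 (median 339). The ZT18 libraries were the higher ones throughout, by 1.54-fold on average (log2 fold change 0.62, SE 0.14, adjusted p = 0.0236). Its call was lost without THRBWT ZT14 c, THRBWT ZT18 c or THRBKO ZT18 b (adjusted p up to 0.0661).

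Of 18 genes of bile acid synthesis and biliary transport, 1 rose and 4 fell (27.8% called, beside 4.02% of all tested genes, median -0.11). All 5 encode transporters of the canalicular membrane. *Abcg5* and *Abcg8*, whose products form the pump that returns sterols to bile, fell together. *Abcg5* lay between 68.0 and 88.1 CPM at ZT14, with a median of 82.4, and between 33.5 and 52.8 CPM at ZT18, with a median of 36.6. With no overlap between the times, the fall was 1.95-fold (log2 fold change -0.96, SE 0.12, adjusted p = 7.56e-04). *Abcg8* was measured at 53.9 to 86.9 CPM at ZT14 (median 79.3) and 28.9 to 49.8 CPM at ZT18 (median 37.5). Both sets of libraries stood apart, with a fall of 1.96-fold (log2 fold change -0.97, SE 0.14, adjusted p = 0.00263). These genes lie head to head on chromosome 17 and their annotated bodies overlap, so part of the reads could not be assigned to one of them. *Abcc2*, an exporter of conjugated compounds, was measured between 344 and 499 CPM at ZT14, with a median of 416, and between 254 and 376 CPM at ZT18, with a median of 327. Some libraries of the times overlapped, and the fall was 1.32-fold (log2 fold change -0.40, SE 0.084, adjusted p = 0.0170). *Abcb11*, the bile salt export pump, ranged from 279.6 to 436 CPM at ZT14 (median 328) and 362 to 466 CPM at ZT18 (median 445). The ranges overlapped in part, with a rise of 1.26-fold (log2 fold change 0.34, SE 0.085, adjusted p = 0.0401). *Abcb4*, which flops phosphatidylcholine into bile, lay between 172 and 255 CPM at ZT14, with a median of 214, and between 150.4 and 194 CPM at ZT18, with a median of 167. There was overlap between the times, and the fall was 1.21-fold (log2 fold change -0.27, SE 0.072, adjusted p = 0.0497). The last 2 calls were weak, being lost in 10 and 11 of 12 fits without 1 library, with adjusted p up to 0.0971 and 0.122. *Cyp7a1*, the rate-limiting enzyme of bile acid synthesis, lay at 98.5 to 359 CPM at ZT14 (median 195) and 99.3 to 182 CPM at ZT18 (median 146). It did not pass the test (log2 fold change -0.38, SE 0.20, adjusted p = 0.335). The genotypes had opposite signs, with a log2 fold change of 0.15 in THRBWT and -0.92 in THRBKO. Their difference had an unadjusted p of 0.00306 and an adjusted p of 0.999 from edgeR. *Cyp7a1* was singled out after its value was seen.

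Of 19 glucose and glycogen genes, 5 fell and 1 rose (31.6% called, beside 4.02% of all tested genes), with a median of -0.17. The counts were not stable, since 2 to 4 genes fell and 0 or 1 rose in the 12 fits without 1 library (2 fell without THRBWT ZT18 c, THRBKO ZT14 b, THRBKO ZT18 a or THRBKO ZT18 b). *Pck1*, the key enzyme of gluconeogenesis, was measured between 1423 and 2635 CPM at ZT14, with a median of 2096, and between 615 and 1442 CPM at ZT18, with a median of 828. The highest ZT18 library overlapped the lowest ZT14 library, and the fall was 2.32-fold (log2 fold change -1.22, SE 0.20, adjusted p = 0.00466). *Gys2*, liver glycogen synthase, was measured at 309 to 386 CPM at ZT14 (median 329) and 161 to 239.5 CPM at ZT18 (median 216). Every ZT18 value was lower, a fall of 1.60-fold (log2 fold change -0.68, SE 0.085, adjusted p = 8.75e-04). *Ugp2*, which makes the UDP-glucose for glycogen, lay between 332 and 504 CPM at ZT14, with a median of 395, and between 253 and 361 CPM at ZT18, with a median of 291. Some libraries of the times overlapped, and the fall was 1.36-fold (log2 fold change -0.45, SE 0.10, adjusted p = 0.0255). *Pfkfb3*, which sets the level of fructose-2,6-bisphosphate, ranged from 18.4 to 50.6 CPM at ZT14 (median 24.4) and 6.14 to 30.5 CPM at ZT18 (median 11.6). The ranges overlapped in part, with a fall of 2.06-fold (log2 fold change -1.04, SE 0.27, adjusted p = 0.0448). *Ppp1r3c*, a subunit that targets protein phosphatase 1 to glycogen, moved the other way and was measured between 22.1 and 59.6 CPM at ZT14, with a median of 40.7, and between 54.2 and 128 CPM at ZT18, with a median of 83.1. There was overlap between the times, and the rise was 2.11-fold (log2 fold change 1.08, SE 0.26, adjusted p = 0.0319). Single libraries mattered for *Ugp2*, *Pfkfb3* and *Ppp1r3c*, whose calls were lost in 6, 9 and 7 of 12 such fits, with adjusted p up to 0.0693, 0.112 and 0.106. The fifth gene that fell was *Slc2a2*, the glucose transporter GLUT2 (log2 fold change -0.40, adjusted p = 0.04999). It stood at the threshold, and its call was lost in 10 of 12 fits (adjusted p up to 0.115). *G6pc*, the enzyme that releases free glucose, was singled out after its value was seen and did not pass (log2 fold change -0.45).

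Of 22 genes of amino acid breakdown and the urea cycle, 4 fell (18.2%, beside 4.02% of all tested genes called) and none rose. Of the list, 18 had a negative value, with a median of -0.16 against 0.015 over all tested genes. *Got1*, cytosolic aspartate aminotransferase, lay at 211 to 370.2 CPM at ZT14 (median 242) and 118 to 191 CPM at ZT18 (median 132). The ranges did not overlap, and the fall was 1.79-fold (log2 fold change -0.84, SE 0.15, adjusted p = 0.00892). *Sds*, serine dehydratase, lay between 116 and 298 CPM at ZT14, with a median of 205, and between 93.0 and 159 CPM at ZT18, with a median of 104. The fall was 1.77-fold, with overlapping ranges (log2 fold change -0.83, SE 0.19, adjusted p = 0.0267). *Tdo2*, the first enzyme of tryptophan breakdown, was measured at 1283 to 1724 CPM at ZT14 (median 1472) and 984 to 1180 CPM at ZT18 (median 1100). All 6 libraries of ZT18 lay below those of ZT14, with a fall of 1.36-fold (log2 fold change -0.44, SE 0.072, adjusted p = 0.00408). Without 1 library, 2 to 4 genes of the list fell (2 without THRBWT ZT14 a, THRBWT ZT14 c, THRBKO ZT18 a or THRBKO ZT18 b). The call of *Sds* was lost in 4 of 12 fits without 1 library, with adjusted p up to 0.0717. In the list of insulin and fasting response genes, 1 of 15 fell (median -0.067), a share of 6.67% beside 4.02% of all tested genes. This single gene was *Foxo1*, a transcription factor that insulin inactivates, which was measured between 27.9 and 32.9 CPM at ZT14, with a median of 30.3, and between 19.2 and 27.9 CPM at ZT18, with a median of 24.8. Some libraries of the times overlapped, and the fall was 1.26-fold (log2 fold change -0.34, SE 0.074, adjusted p = 0.0203).

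Protein folding was followed by a list for each of its compartments. In the endoplasmic reticulum list, 3 of 23 genes rose and none fell (median 0.11), a share of 13.0% beside 4.02% of all tested genes. However, 1 rose without THRBWT ZT18 a, THRBKO ZT14 b, THRBKO ZT14 c or THRBKO ZT18 b, and 1 fell without THRBKO ZT18 a. *Calr*, the lectin chaperone calreticulin, ranged from 643 to 894 CPM at ZT14 (median 813) and 962 to 1305 CPM at ZT18 (median 1140). This 1.46-fold rise left no overlap between the times (log2 fold change 0.55, SE 0.088, adjusted p = 0.00389). The disulfide isomerases *Pdia6* (log2 fold change 0.45, SE 0.10, adjusted p = 0.0250) and *Pdia3* (log2 fold change 0.38, SE 0.088, adjusted p = 0.0269) also rose. Their calls were lost in 4 and 7 of 12 fits without 1 library, with adjusted p up to 0.0628 and 0.0693. In the list of heat shock and cold-inducible genes, 3 of 16 fell and 1 rose (25% called, median -0.13). Beside *Hspa1a* and *Hspa1b*, *Dnaja1*, an HSP40 partner of HSP70, fell (log2 fold change -0.51, SE 0.12, adjusted p = 0.0260). *Hspb1*, a small heat shock protein, rose (log2 fold change 0.62, SE 0.16, adjusted p = 0.0399). These calls were lost in 6 and 8 of 12 such fits, with adjusted p up to 0.0708 and 0.0831. Of 29 ribosome biogenesis genes, 3 fell (10.3%) and none rose. Of the list, 26 had a negative value, and the median was -0.24 against 0.015 over all tested genes. The number that fell was 2 to 5 in the fits without 1 library (5 without THRBKO ZT14 a). Those that passed were *Ftsj3* (log2 fold change -0.40, SE 0.077, adjusted p = 0.0103), *Nop14* (log2 fold change -0.37, SE 0.079, adjusted p = 0.0176) and *Rrp12* (log2 fold change -0.48, SE 0.13, adjusted p = 0.0474), all factors of pre-rRNA processing. *Rrp12* was lost in 9 of 12 fits (adjusted p up to 0.115) and *Nop14* without THRBKO ZT18 b (adjusted p = 0.0501). None of 81 tested genes of cytosolic ribosomal proteins passed (median 0.03), nor did any of 13 mitochondrially encoded genes (median 0.11).

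Thyroid hormone action was represented by 18 genes of receptors, deiodinase, transport and known targets, of which 1 passed the test (median -0.054). This share of 5.56% lay beside 4.02% of all tested genes. Without 1 library the number that fell was 1 to 3 (2 without THRBWT ZT18 a and 3 without THRBWT ZT18 b), and under other settings it was 1 to 4. *Slco1a4*, a carrier of organic anions that include thyroid hormones, lay between 72.6 and 178 CPM at ZT14, with a median of 92.7, and between 40.8 and 93.3 CPM at ZT18, with a median of 46.3. The fall was 2.00-fold (log2 fold change -1.001, SE 0.16, adjusted p = 0.00357), although 1 ZT18 library (THRBKO c) lay above the median of ZT14. *Thrb* had a log2 fold change of -0.0014 (SE 0.071), and *Dio1* of 0.20 (SE 0.18), neither past the threshold. In the list of 19 genes of drug metabolism, 2 fell and none rose, with 18 negative values and a median of -0.22. Without 1 library, 1 to 3 fell (1 without THRBWT ZT14 a, THRBWT ZT14 c, THRBWT ZT18 c, THRBKO ZT14 b or THRBKO ZT18 b). Beside *Por*, the pair held *Nr1i2*, which encodes the xenobiotic sensor PXR (log2 fold change -0.39, SE 0.089, adjusted p = 0.0248). Its call was lost in 5 of 12 fits without 1 library (adjusted p up to 0.0607). Of 11 tested glucocorticoid response genes 2 fell (18.2%), *Fkbp5* and *Mt1* (median -0.23), and 1 to 3 did without 1 library (1 without THRBKO ZT18 b). Of 16 genes of the growth hormone axis 1 fell (6.25%; median -0.047), *Igfbp4*, a binding protein of insulin-like growth factors (log2 fold change -0.29, SE 0.07, adjusted p = 0.0300). That call was the only one of the list and was lost in 8 of 12 fits (adjusted p up to 0.0835). In the cell cycle list 2 of 20 fell (10%, median 0.016), of which 1 was left in 9 of 12 fits without 1 library, and 2 rose without THRBKO ZT14 c. The 2 that fell were *Ccne1*, cyclin E1 (log2 fold change -1.08, SE 0.22, adjusted p = 0.0144), and *Wee1*, a kinase that restrains entry into mitosis (log2 fold change -0.50, SE 0.13, adjusted p = 0.0429). *Wee1* was lost in 9 of 12 fits (adjusted p up to 0.113). None of 20 tested immediate early genes and none of 19 acute phase genes passed, with medians of -0.059 and 0.051.

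**Figure D4:**
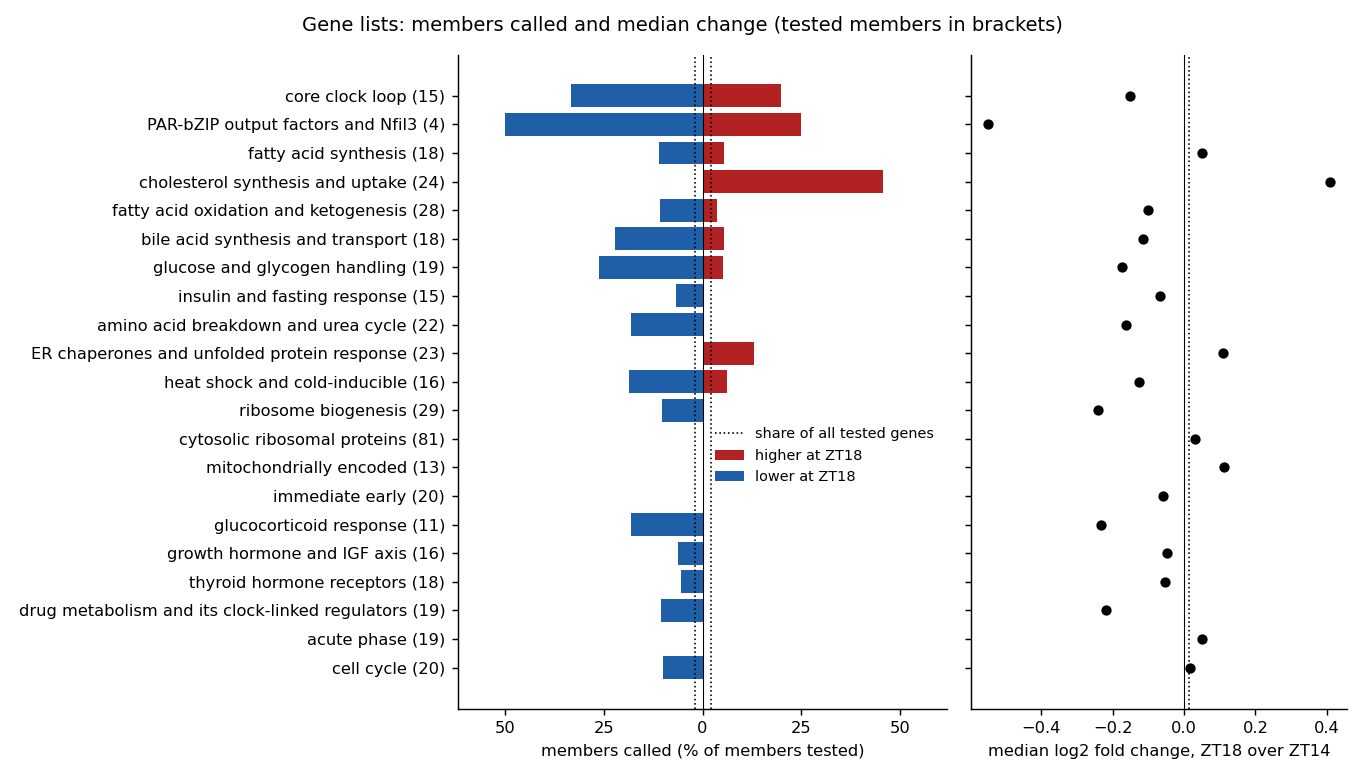
For each of 21 gene lists, the percentage of tested members that were higher (red, to the right) or lower (blue, to the left) at ZT18, and the median log2 fold change of its tested members (black points), with dotted lines at the values over all tested genes. Cholesterol synthesis has the longest red bar and the highest median, and ribosomal protein, mitochondrially encoded, immediate early and acute phase genes have no bar.

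Whether the step differed between genotypes was tested by an interaction term. No gene passed it (edgeR, 0 of 17994 at an adjusted p under 0.05), and 651 genes (3.62%) had an unadjusted p under 0.05. DESeq2 called 1 gene, *Mup4*, a major urinary protein gene of a family with near-identical copies. *Mup4* was listed at 0 in the 3 THRBKO libraries of ZT14, at 2.02, 148 and 44.9 CPM in those of ZT18, and at 10.7 to 77.8 CPM in the 6 THRBWT libraries. Within single genotypes, with 3 libraries a time, 27 genes (0.15%) passed in THRBWT and 46 (0.256%) in THRBKO. These counts turned on single libraries, with 5 to 76 genes in THRBWT and 0 to 53 in THRBKO over the fits without 1 of them (0 without THRBKO ZT18 b). Of the 6 THRBWT libraries each moved its count by over 1.5 times when left out, as did all THRBKO libraries except ZT14 a. *Arntl* had a log2 fold change of 1.42 in THRBWT and 1.82 in THRBKO, and *Hmgcs1* of 1.72 and 1.49. The difference for *Hmgcs1* was -0.23 (95% interval -0.77 to 0.32), which leaves room for a difference of either sign.

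Among the 5 genes per direction with the smallest interaction p, *Rgs16*, a regulator of G protein signalling, showed the widest gap. In THRBWT it fell from 26.6 ± 2.46 CPM to 2.06 ± 0.586 CPM (SD, n = 3; log2 fold change -3.70, adjusted p = 1.87e-04). In THRBKO it was 23.6 ± 12.1 CPM and 16.9 ± 14.03 CPM (SD, n = 3; -0.48, adjusted p = 0.788). The THRBKO libraries a, b and c lay at 25.48, 34.59 and 10.66 CPM at ZT14. At ZT18 they lay at 6.399, 11.39 and 32.81 CPM. Libraries a and b of ZT18 were thus below a and b of ZT14, whereas library c was lowest at ZT14 and highest at ZT18. How far the gap rested on the c libraries was not tested. The interaction for *Rgs16* had an unadjusted p of 7.92e-04 and an adjusted p of 0.999 from edgeR. None of these 10 passed the test of the difference. Those with a more positive value in THRBKO included *Ppp1r15a* (-0.56 in THRBWT and 0.046 in THRBKO), which encodes the stress-induced phosphatase subunit GADD34. Those with a more negative value in THRBKO included *S1pr1*, a sphingosine-1-phosphate receptor (0.45 and -0.03), and *Egln3*, a prolyl hydroxylase of the hypoxia response (0.083 and -0.68). *Pck1*, not among these 10, was singled out here after its value was seen. It had a difference of 0.996 (95% interval 0.35 to 1.64, not adjusted for the number of genes). The fall was 1.71 on the log2 scale in THRBWT and 0.72 in THRBKO, at an adjusted p of 0.999 from edgeR for the difference.

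Mean levels over the day placed the step. *Arntl* had mean levels of 29.9, 4.12, 1.03, 5.92, 18.04 and 30.2 CPM at the 6 times from ZT2 to ZT22, with its lowest value before lights off. *Nr1d1* was highest at ZT6, at 164 ± 19.7 CPM (SD, n = 6), and had come down to 22.4 ± 6.58 CPM by ZT14. *Dbp* was highest at ZT10, at 184 ± 36.6 CPM, *Por* at ZT14, at 730.5 ± 107 CPM, and *Fkbp5* also at ZT14. *Hmgcs1* was lowest at ZT14, at 87.0 ± 14 CPM, and reached 494 ± 207 CPM at ZT22. By the same test, 2816 genes (15.6%) changed from ZT10 to ZT14 and 141 (0.784%) from ZT18 to ZT22, the steps on either side, which share 6 libraries each with the early dark step.

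**Figure D5:**
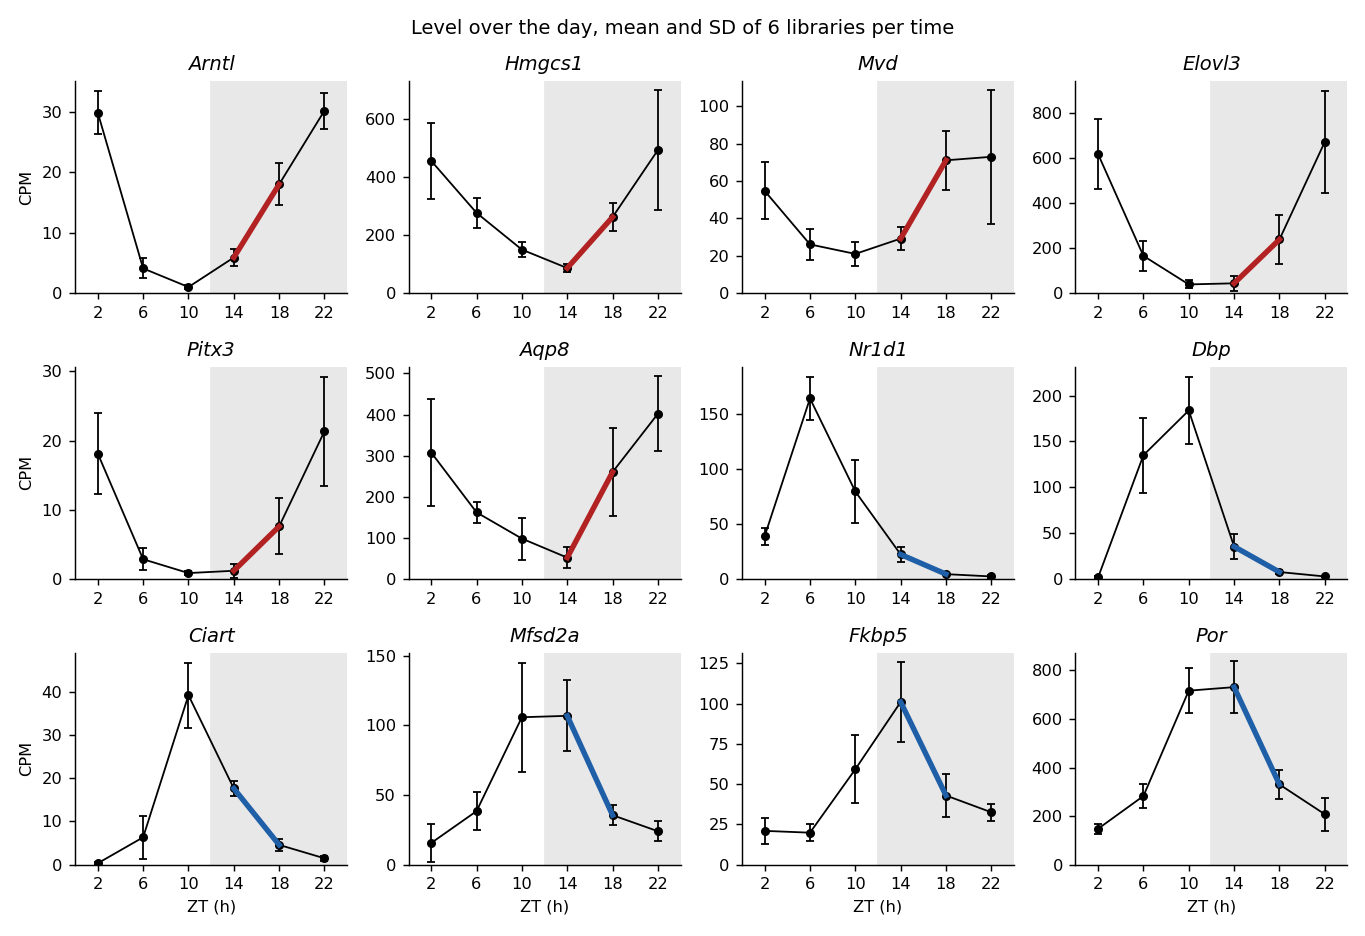
Mean CPM and SD of 6 libraries at each of 6 times (horizontal axis, ZT in h; dark phase shaded) for 12 genes, with the early dark step drawn in red where it is a rise and in blue where it is a fall. *Arntl*, *Hmgcs1*, *Mvd*, *Elovl3*, *Pitx3* and *Aqp8* climb from low levels around ZT10 and ZT14, and *Nr1d1* comes down from ZT6 and *Dbp* and *Ciart* from ZT10, while *Mfsd2a*, *Fkbp5* and *Por* drop from a high level at ZT14.

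The step was set against the step at the same distance from lights on, from ZT2 to ZT6, in a fit over 24 libraries. The change differed for 3167 genes (17.6%), being more positive in the dark for 1511 (8.4%) and more negative for 1656 (9.2%). The 5 genes per direction with the smallest p had opposite signs at these steps, and 5 of these 10 were *Arntl*, *Nr1d1*, *Dbp*, *Tef* and *Nfil3*. A ranking by this difference favours genes that change in opposite directions, so that the signs are no separate result. *Arntl* had a log2 fold change of 1.60 in the dark and -2.87 in the light, *Nr1d1* of -2.34 and 2.07, and *Dbp* of -2.22 and 6.33. Outside the clock, *Pnpla2*, the triglyceride lipase ATGL, had values of -0.63 in the dark and 0.68 in the light. *Insc*, a spindle orientation gene, followed with 0.40 and -1.25, and *Caprin1*, an RNA-binding protein of stress granules, with 0.28 and -0.65. Of the 724 genes called for the step, 635 also passed this contrast, which contains the same ZT14 and ZT18 libraries. Among those that did not, *Hspa1a* had values of -1.96 and -0.37, and *Srebf1* of -0.65 and -0.19, with adjusted p of 0.0528 and 0.213 for the difference.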

How the data were processed

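Liver RNA was sequenced from poly-A enriched, non-directional, paired-end libraries. The authors aligned reads to GRCm38/mm10 with HISAT2 and counted them per gene with featureCounts (versions not given in the sources used here), and deposited the raw counts used here. Reads of overlapping genes on opposite strands are not separable.

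Groups came from the sample labels. Genes with at least 100 counts over 36 libraries were tested with edgeR 4.0.16 (R 4.3.3; TMM, quasi-likelihood F test, genotype as covariate, Benjamini-Hochberg adjusted p under 0.05) on the 12 libraries. Other contrasts used the same test. CPM per library used TMM over 36 libraries. The scripts were tested on simulated data.

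The members, gene lists and tests were chosen with earlier results of these data known. Named genes were the 10 largest rises and 10 largest falls among called genes with a mean of at least 50 counts, without overlap between times and with 1 direction in both genotypes (predicted genes left out). To these were added all clock and PAR-bZIP genes, up to 5 called members of each other list, *Thrb*, *Thra* and *Dio1*, and the 10 genes with the smallest p (5 per direction) in the interaction and in the contrast with the light step. Some genes are not reported here. Promoters came from RefSeq (GRCm38.p6). Alternatives were DESeq2 1.42.0, RLE size factors, other filters, all 36 libraries, no genotype term, a minimum fold change, replicate letters as a block, and leaving out each library.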

Additional observations from a re-analysis of the deposited data

Results flagged for a closer look

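Single libraries stood far from the other 5 of their time in 7 of 148 groups of 6 (74 genes at both times) by Dixon's test (gap to the nearest library over the range, 95% critical value). Chance gives such a gap in about 1 in 20 groups. At ZT14, THRBKO c was the library concerned each time. It was highest for *Mt1* (24.18 CPM) and *Fads2* (537.6 CPM). At ZT18, THRBWT c was highest for *Npas2* (2.504 CPM) and lowest for *Tef* (87.99 CPM), and THRBWT b was highest for *Fkbp5* (69.34 CPM). In THRBKO at ZT18, library c was highest for *Slco1a4* (93.27 CPM) and library a for *Ccne1* (1.824 CPM).

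The early dark step differed from the early light step for 3167 genes by the test of the difference itself (edgeR, adjusted p under 0.05). Among the genes with the smallest p, the dark step was the more positive by 4.471 on the log2 scale for *Arntl*, 2.426 for *Nfil3*, 1.645 for *Insc* and 0.9263 for *Caprin1*. The difference was -8.551 for *Dbp*, -4.411 for *Nr1d1*, -2.967 for *Tef*, -2.064 for *Por* and -1.306 for *Pnpla2*.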

How the results depend on the processing

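The count of 724 genes became 1416 with DESeq2 (693 of the 724 shared), 1240 in a fit over all 36 libraries, 11 with a minimum fold change of 1.5, and 373 to 812 without 1 library. It stayed between 577 and 938 with RLE size factors, filterByExpr, no filter, no genotype term and both replicate blocks, and the cause of these differences was not tested. The interaction gave 1 gene with DESeq2 and 0 under every other setting tried. Within THRBWT, 27 genes became 382 with DESeq2, 13 with filterByExpr, 11 with a replicate block by letter, and 5 to 76 without 1 library. Within THRBKO, 46 became 386 with DESeq2, 9 with the block, and 0 to 53 without 1 library. The contrast with the light step called between 2782 and 3594 genes, of which 2725 to 3139 were shared with its 3167. Of 65 named genes that passed, 65 kept their direction over 20 settings each (the minimum fold change apart) and 39 passed in all of them. *Thrb* (log2 fold change -0.001446) changed sign with filterByExpr (0.0008158), without the genotype term (0.003762), with a replicate block within genotype (0.001635) and without single libraries (-0.05941 to 0.0345), as did *Cry2* (-0.03669) without single libraries (-0.09834 to 0.007728). Replicate letters were not treated as pairs across the times, and no label says what they stand for. Deviations of same-letter libraries of 1 genotype at ZT14 and ZT18 correlated at -0.05 to 0.229. Numbers in the headers of the count columns run close together over both times for letter b and for letter c, but not for letter a. Whether the letters mark a shared batch was not tested. Over all 18 same-letter pairs the range was -0.136 to 0.273 and 8 exceeded 0.1, among them all 3 between THRBWT and THRBKO at ZT18 (0.234 to 0.273). As a block, the letter gave 735 genes, 644 of them shared with the 724 and without *Acot4*, *Ppp1r3c* and *Rrp12* (adjusted p = 0.0521, 0.0540 and 0.0612), and the block within genotype 577, 507 of them shared. With 3 mice per genotype and time, differences between genotypes may have been missed. The stated intervals, for *Hmgcs1* and *Pck1*, hold for these genes only.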

Other observations

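A few single genes known from immune and blood cells were higher at ZT18, although no member of the marker lists of these cells passed the test. All genes in this section were singled out after their values were seen, and they form no list. *Mzb1*, a chaperone of B and plasma cells, lay at 0.161 to 0.393 CPM at ZT14 (median 0.248) and 0.407 to 1.02 CPM at ZT18 (median 0.689). The ZT18 libraries were the higher ones throughout, by 2.55-fold on average (log2 fold change 1.35, SE 0.29, adjusted p = 0.0201). It was lost without THRBWT ZT18 c (adjusted p = 0.0627). *Nfe2*, a factor of erythroid cells and platelets, was measured between 0.273 and 0.784 CPM at ZT14, with a median of 0.585, and between 1.003 and 1.97 CPM at ZT18, with a median of 1.49. With no overlap between the times, the rise was 2.60-fold (log2 fold change 1.38, SE 0.26, adjusted p = 0.0105). Its adjusted p was at most 0.0335 in the 12 fits without 1 library. The cytokine gene *Tnf* held 132 counts over the 12 libraries and the chemokine gene *Ccl4* 73. Both passed (adjusted p = 0.0409 and 0.0401), but were lost in 9 and 9 of the 12 fits, with adjusted p up to 0.0946 and 0.0983. The summed Kupffer cell markers ranged from 221 to 352 CPM at ZT14 (median 249.5) and from 243 to 683 CPM at ZT18 (median 287.3). For the B cell markers the ranges were 4.37 to 7.03 (median 5.64) and 6.02 to 22.6 CPM (median 6.80). For the erythroid markers they were 234 to 331 (median 272) and 232 to 561 CPM (median 338). The T and NK cell markers summed to at most 2.35 CPM in any library, the neutrophil markers to at most 0.678 CPM, and *Lep* of the adipocyte list and *Cpa1*, *Prss2* and *Pnlip* of the pancreas list were at 0 in all 12 libraries. What these cells contributed to these genes was not tested.

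Single genes outside the lists also passed the test. *Ppard*, a lipid-sensing nuclear receptor, was measured at 13.1 to 17.3 CPM at ZT14 (median 15.5) and 20.8 to 48.6 CPM at ZT18 (median 32.9). Both sets of libraries stood apart, with a rise of 2.15-fold (log2 fold change 1.10, SE 0.18, adjusted p = 0.00475). *G6pdx*, which opens the pentose phosphate pathway and supplies NADPH, lay between 3.33 and 4.74 CPM at ZT14, with a median of 4.09, and between 4.77 and 12.6 CPM at ZT18, with a median of 8.86. Every ZT18 value was higher, a rise of 2.15-fold (log2 fold change 1.11, SE 0.20, adjusted p = 0.00892). Among the falls, *Slc5a6*, the transporter of biotin and pantothenate, ranged from 9.72 to 20.1 CPM at ZT14 (median 13.6) and 5.60 to 7.75 CPM at ZT18 (median 6.63). The ranges did not overlap, and the fall was 2.13-fold (log2 fold change -1.09, SE 0.15, adjusted p = 0.00123). *Tsku*, which encodes a secreted protein of the liver, *Nrg4*, a growth factor of the EGF family, and *Lipg*, endothelial lipase, had log2 fold changes of -1.06, -1.07 and -1.05, with adjusted p of 7.56e-04, 0.00619 and 0.0216 from edgeR. The call of *Lipg* was lost in 4 of 12 fits without 1 library (adjusted p up to 0.0564).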
